A study of Mus musculus with 4 samples.

Results

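The integrins, their cell surface ligands and their intracellular activators were described in leukemic mouse bone marrow with and without Hes1. The genes were taken by name: 18 alpha subunits, 8 beta subunits, 5 surface ligands (Icam1, Icam2, Icam4, Vcam1 and Madcam1) and 3 activators (Fermt2, Fermt3 and Tln1). All 34 were measured, out of 19938 genes on the array with a single symbol, and none was left out for a low level. The samples were whole bone marrow from leukemic mice of the C57BL/6 strain. The leukemia came from MLL-AF9, an oncogene made by fusion of MLL with AF9 and known from human acute leukemia. Every sample, controls included, carried MLL-AF9. Hes1+/+ marrow, labelled wild type, gave 2 arrays, as did Hes1-/- marrow, labelled Hes1 null (Hes1-null in the text). How the fusion gene was delivered, how Hes1 was deleted, whether the samples came from separate animals and the age of the mice are not stated in the sources used here. Hes1, a repressor of transcription, is a target gene of Notch signalling, and the study asked whether it accounts for the restraint of this leukemia by Notch.

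Integrins are heterodimers of 1 alpha and 1 beta subunit that anchor cells to matrix proteins and to other cells. In marrow, the integrin of Itga4 and Itgb1 (VLA-4) holds blood progenitors to VCAM-1, which stromal cells, endothelium and resident macrophages display. The leukocyte integrins pair an alpha subunit such as Itgal or Itgam with Itgb2 and bind the ICAM proteins. Talin (Tln1) and the kindlins (Fermt2 and Fermt3) bind the tails of beta subunits inside the cell and switch integrins to their high-affinity form.

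Levels are log2 intensities. Differences are taken as Hes1-null minus wild type on that scale and carry their standard error (SE), with n = 2 arrays for each genotype. A gene was called at an adjusted p under 0.05 (limma, Benjamini-Hochberg over all 19938 genes), and the p-values measure only the spread between these samples, which may be technical. Median intensities ran from 65.0 to 67.3 (linear scale) over the 4 arrays. Genes 2-fold or more apart within a genotype numbered 109 in wild type and 683 in Hes1-null marrow. Hes1 itself had levels of 5.59 and 5.79 in wild type and of 5.43 and 5.84 in Hes1-null marrow, so its probe set did not separate the genotypes (-0.06 ± 0.18, adjusted p = 0.968). It is not known here whether that probe set lies in the deleted part. The 10 marrow and leukemia markers summed to 18874 and 18689 (linear intensity) in wild type and to 16089 and 14909 in Hes1-null marrow. Their lowest intensity was 83.9. The sum weighs the brightest genes most, and the markers did not share its direction. Of the 10 differences 7 were positive and 3 negative, with a median of 0.15. On both Hes1-null arrays 3 markers were lower and 3 higher, where all genes gave 20.6% and 17.4%. Of the 3 brightest, Spi1, the gene of the myeloid factor PU.1, lay between 11.53 and 11.78 and Cd33 between 11.70 and 12.18. Both were higher on both Hes1-null arrays without passing the test. Their differences were 0.15 ± 0.11 for Spi1 (adjusted p = 0.804) and 0.33 ± 0.11 for Cd33 (adjusted p = 0.546). The third, the myeloperoxidase gene Mpo, lay at 12.83 and 12.69 in wild type and at 11.74 and 10.13 in Hes1-null marrow (-1.83 ± 0.50, adjusted p = 0.399). Whole marrow mixes leukemic and other cells, and fewer cells of a type and less RNA per cell cannot be told apart in any difference given here.

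Vcam1 fell in Hes1-null marrow and was the only one of the 34 genes to pass the test. Another 7 genes lay lower and 1, Icam1, higher at an unadjusted p under 0.05 without passing. They were Itga1, Itgb3, Itga2b, Itga6, Itga2, Itga4 and Fermt2 among those lower. Of all genes 0.145% were called, 0.0752% lower and 0.0702% higher in Hes1-null marrow. At the unadjusted threshold, 8 of the 34 genes (23.5%) were lower and 1 (2.94%) higher, where all genes gave 4.78% and 3.51%, or 8.29% in either direction. Both Hes1-null arrays lay below both wild-type arrays for 16 genes (47.1%) and above them for 6 (17.6%), where all genes gave 20.6% and 17.4%. The genotypes overlapped for the other 12. The median difference was -0.16 over the 34 genes and -0.02 over all genes, and 24 of the 34 differences (70.6%) were negative, against 53.6% over all genes.

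**Figure D1:**
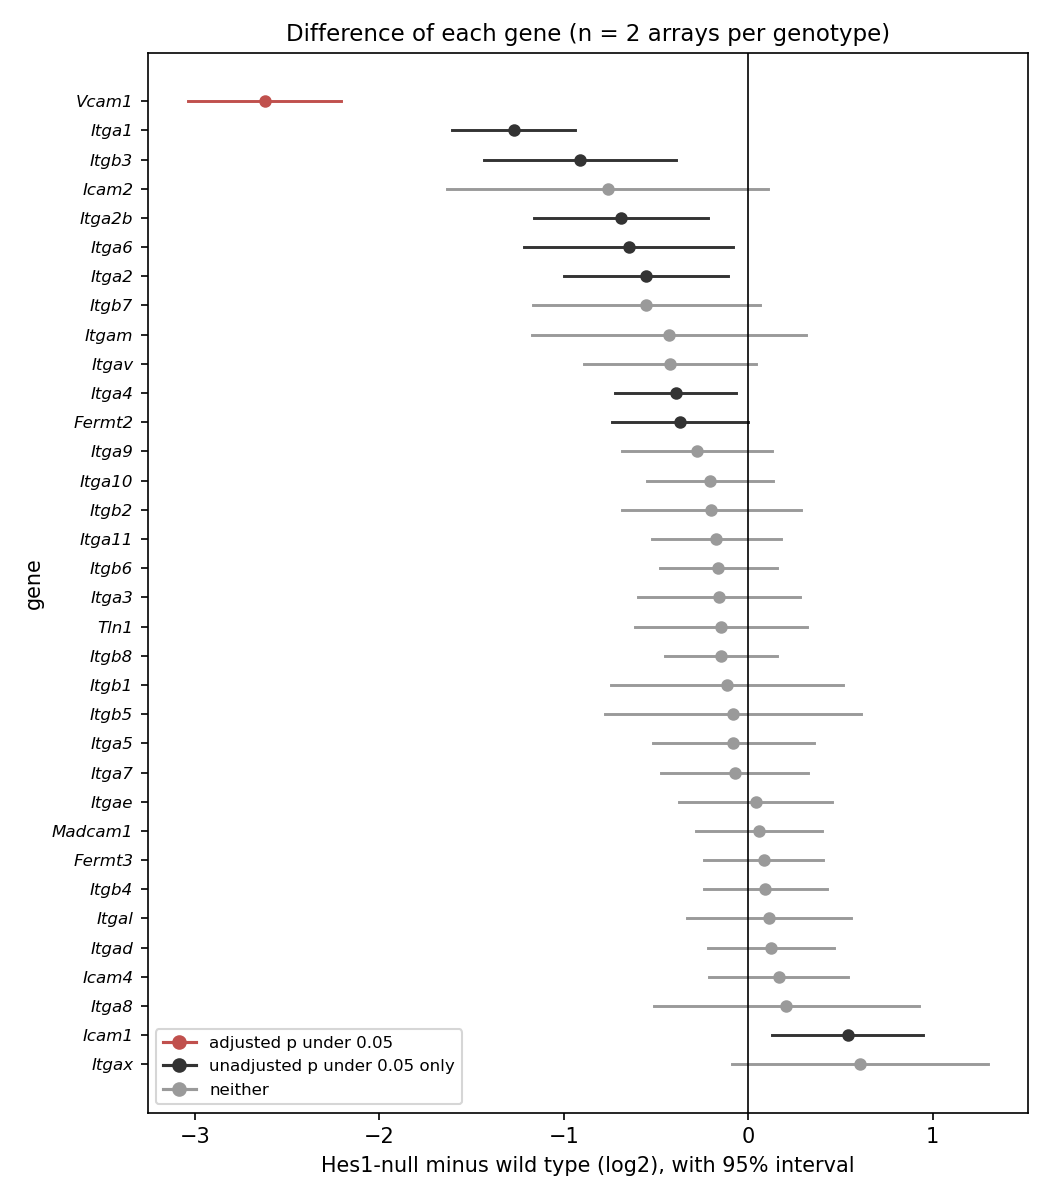
Difference of each of the 34 genes, Hes1-null minus wild type on the log2 scale, with its 95% interval from limma (n = 2 arrays per genotype). Vcam1, at the top, is the only gene with an adjusted p under 0.05, at -2.62, and Itgax and Icam1 have the largest positive differences, 0.60 and 0.54.

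**Figure D2:**
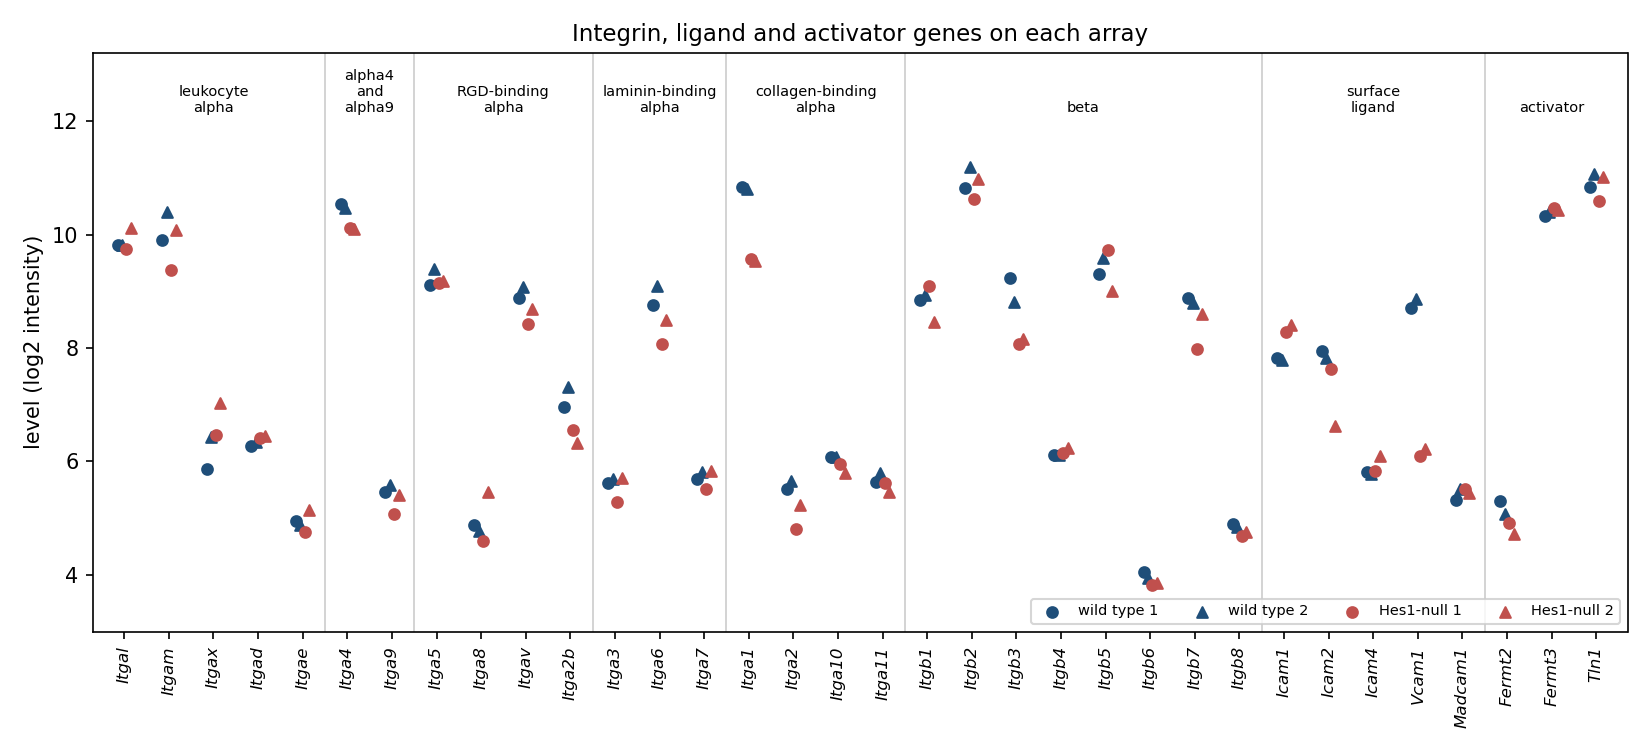
Level (log2 intensity) of each gene on the 4 arrays, grouped by role, with wild type in blue, Hes1-null in red, and the replicate number as circle or triangle. The height of different genes also reflects their probes, so only points of the same gene are compared, as for Vcam1, whose wild-type arrays lie at 8.70 and 8.86 and whose Hes1-null arrays lie at 6.09 and 6.23.

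Vcam1 encodes the ligand of the integrins that hold Itga4, and of the integrin of Itga9 and Itgb1. Its level was 8.70 and 8.86 in the wild-type samples, against 6.09 and 6.23 in the Hes1-null samples. The gap between the genotypes was far wider than the gap within either. The difference was -2.62 ± 0.17 (95% interval -3.04 to -2.20, adjusted p = 0.0242), a 6.15-fold lower level. The p-value of Vcam1 was the 8th smallest of all genes. On the Hes1-null arrays its level lay below the median over all genes (6.32 and 6.33). Detection calls are absent from the deposited values, so a level above background is not shown there. The fold size is uncertain to that extent. With 1 array left out the difference stayed between -2.70 and -2.54, but the call ended when wild-type replicate 2 (adjusted p = 0.0700) or Hes1-null replicate 2 (adjusted p = 0.0532) was left out.

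The genes of the main receptor for VCAM-1 had smaller differences, which did not pass the test. Itga4, the alpha subunit of VLA-4, lay at 10.53 and 10.46 in wild type and at 10.11 and 10.10 in Hes1-null marrow. The groups did not overlap, and the difference was -0.39 ± 0.13 (95% interval -0.72 to -0.07, adjusted p = 0.520), which did not pass. Itgb1, its partner and the shared beta subunit of many matrix receptors, lay at 8.84 and 8.93 in wild type and at 9.09 and 8.45 in Hes1-null marrow. The Hes1-null arrays lay on either side of wild type (-0.12 ± 0.25, 95% interval -0.74 to 0.51, adjusted p = 0.949). The sign of Itgb1 followed single arrays, at -0.43 when Hes1-null replicate 1 was left out and at 0.20 when replicate 2 of that genotype was.

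Set against Itga4 on the same array, Vcam1 stood at -1.84 and -1.60 (log2 of Vcam1 over Itga4) in wild type and at -4.02 and -3.87 in Hes1-null marrow. The ratio thus shifted by -2.23, or 4.68-fold, with SDs of 0.17 in wild type and 0.10 in Hes1-null marrow (n = 2 each). Against Itgb1 the values were -0.14 and -0.07 in wild type and -3.00 and -2.22 in Hes1-null marrow, a shift of -2.51, or 5.68-fold, with SDs of 0.05 and 0.55. Neither pair of genotypes overlapped. The exact permutation test over the 4 arrays gave p = 0.333 for each ratio (two-sided, and 0.333 adjusted over the 2 ratios), the smallest that its 6 splits allow, so this test cannot reach 0.05 with 4 arrays. These ratios describe unequal log2 differences of ligand and receptor genes, and they mostly restate the difference of Vcam1. Their absolute height carries no meaning because probes differ.

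**Figure D3:**
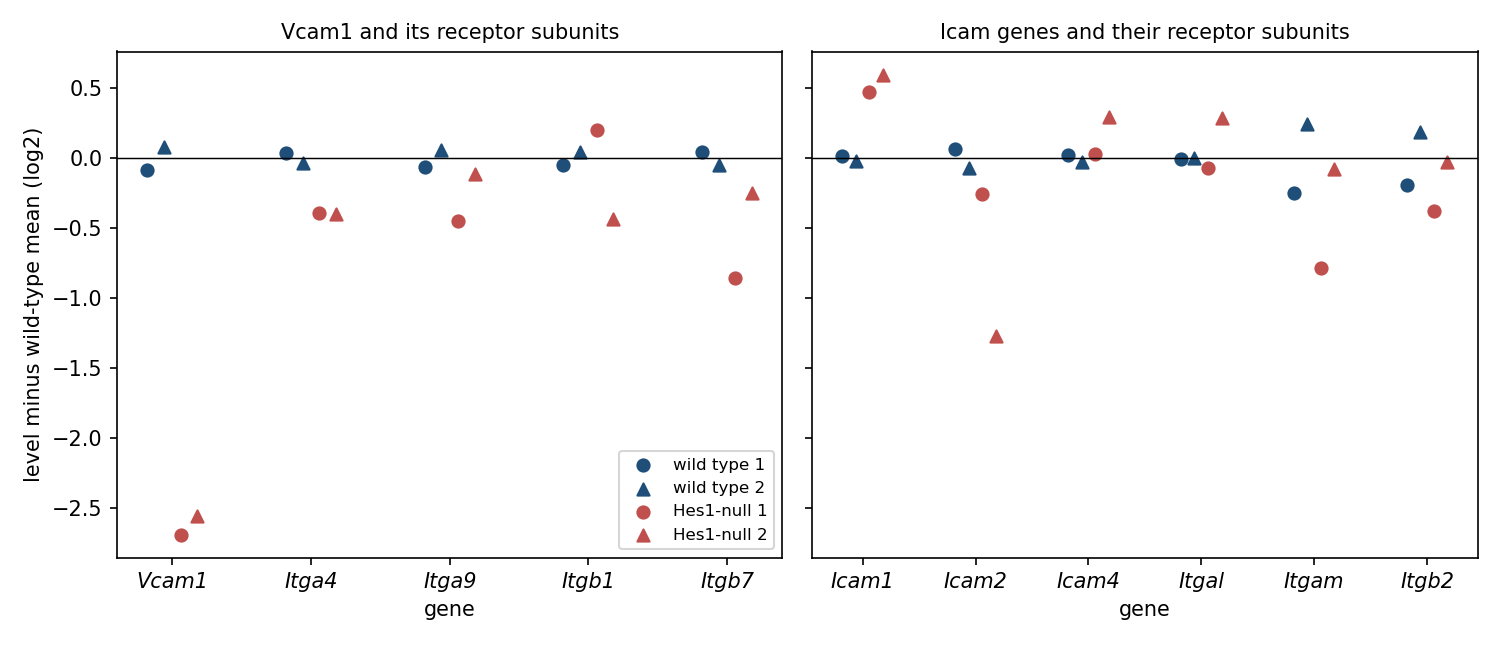
Level on each array minus the wild-type mean of the same gene (log2). Vcam1 is shown with subunits of its receptors (left), and the Icam genes with subunits of theirs (right). The Hes1-null arrays of Vcam1 average -2.62 and those of Itga4 average -0.39, and Icam2 is split between its Hes1-null arrays.

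Among the other subunits of receptors for VCAM-1 were Itgb7 and Itga9. Itgb7, which pairs with Itga4 in the gut-homing integrin and with Itgae, lay at 8.89 and 8.80 in wild type and at 7.99 and 8.60 in Hes1-null marrow (-0.55 ± 0.24, adjusted p = 0.641). Both Hes1-null arrays were lower but lay 0.61 apart. Itga9 differed by -0.28 ± 0.16 (adjusted p = 0.743), with groups that did not overlap. Madcam1, the mucosal ligand of the Itga4 and Itgb7 pair, lay between 5.32 and 5.51 on the 4 arrays, with overlapping groups (0.06 ± 0.14, adjusted p = 0.952). Itgae, which with Itgb7 binds E-cadherin, ranged from 4.76 to 5.14 with overlapping groups (0.04 ± 0.17).

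Markers of the cells that display VCAM-1 were read beside Vcam1, and none of those for macrophages, stroma or endothelium passed the test over all genes (smallest adjusted p = 0.217, 0.139 and 0.218). Of 16 macrophage markers 15 were measured, and 10 lay lower on both Hes1-null arrays and 0 higher, where all genes gave 20.6% and 17.4%. At an unadjusted p under 0.05 (limma), 6 of the 15 lay lower and 0 higher, where all genes gave 4.78% and 3.51%. Their summed intensity (linear scale) was 2035 and 2785 in wild type and 1335 and 1485 in Hes1-null marrow, a ratio of 0.585. Adgre1, the gene of the macrophage antigen F4/80, was the brightest of them and lay at 9.79 and 10.42 in wild type and at 9.21 and 8.85 in Hes1-null marrow. The 13 stromal markers summed to 1168 and 1352 in wild type and to 1263 and 1247 in Hes1-null marrow, with overlapping groups and a ratio of 0.996. Of these, 9 were lower on both Hes1-null arrays and 1, the brightest, Pdgfrb, was higher. Without Pdgfrb the stromal sums were 888 and 902 against 606 and 669. The 14 endothelial markers summed to 1451 and 1476 in wild type and to 1199 and 1031 in Hes1-null marrow, a ratio of 0.762, with 8 lower on both Hes1-null arrays and 0 higher. The unadjusted threshold was met by 6 stromal markers lower and 1 higher, and by 4 endothelial markers lower and 0 higher. Without the brightest gene of each list, the ratios were 0.689 for macrophages (without Adgre1), 0.712 for stroma and 0.727 for endothelium (without Pecam1). No marker was at 0 in these 3 lists, as is usual for values of this kind, and their lowest intensities were 13.9, 5.98 and 15.9. The part of these cells in the Vcam1 difference was not tested.

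**Figure D4:**
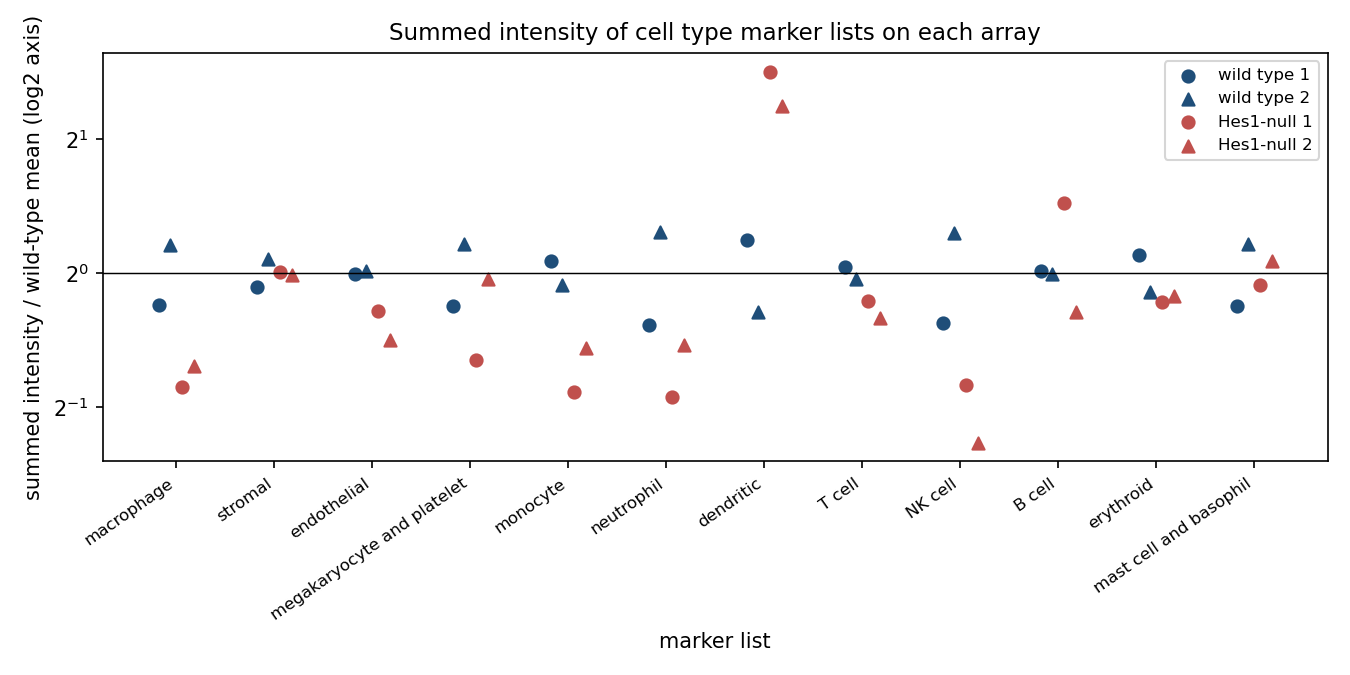
Summed intensity of each cell type marker list on the 4 arrays, divided by the wild-type mean of the list (log2 axis), with wild type in blue and Hes1-null in red. Both Hes1-null arrays lie below both wild-type arrays for the macrophage, endothelial, monocyte, neutrophil, T cell, NK cell and erythroid lists, and above them for the dendritic list, whose brightest gene is Flt3.

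The ICAM ligands lay in different directions, and none passed the test. Icam1, an inducible ligand of the leukocyte integrins, lay at 7.83 and 7.79 in wild type and at 8.28 and 8.41 in Hes1-null marrow. Both Hes1-null arrays were higher, and the difference of 0.54 ± 0.16 (95% interval 0.13 to 0.95, adjusted p = 0.458) did not pass the test over all genes. Icam2, a constitutive ligand of endothelium, platelets and leukocytes, lay at 7.95 and 7.82 in wild type and at 7.63 and 6.62 in Hes1-null marrow. Both Hes1-null arrays were lower, but they lay 1.01 apart, the widest gap within a genotype among the 34 genes (-0.76 ± 0.35, adjusted p = 0.655). Without Hes1-null replicate 1 the Icam2 difference was -1.27, and without Hes1-null replicate 2 it was -0.26. Icam4, a red cell ligand whose gene follows Icam1 directly on chromosome 9, differed by 0.16 ± 0.15 (adjusted p = 0.853).

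The promoter of Icam1 is shown because Icam1 had the smallest p-value among those of the 34 genes with a positive difference. It is the 250 bases before the start that RefSeq annotates (GRCm38.p6, chr9:21015690-21015939, plus strand), written 5′ to 3′ on the gene's strand. Capitals mark matches to GGNNNTTCC on either strand, a short form of the site that NF-kB factors bind.
Icam1: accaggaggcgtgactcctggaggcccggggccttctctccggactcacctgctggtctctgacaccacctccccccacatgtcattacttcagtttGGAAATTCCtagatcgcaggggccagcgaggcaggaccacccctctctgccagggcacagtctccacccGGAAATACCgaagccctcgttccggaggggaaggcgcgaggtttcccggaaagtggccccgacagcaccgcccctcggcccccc
The first match, which meets the pattern on both strands, begins 153 bases before the start and the other begins 84 bases before it. The motif occurred in 15.7% of all 32851 promoters of this length, and in those of Icam1, Itga5, Itgb1 and Madcam1 among the 24 of the 34 genes with an entry. A match is a description of the sequence and not a measurement of binding.

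Of the receptor genes for the ICAM proteins, Itgb2, Itgal and Itgam were bright and showed no shared direction. Itgb2, the common beta subunit of leukocyte integrins, lay at 10.81 and 11.19 in wild type and at 10.63 and 10.98 in Hes1-null marrow, with overlapping groups (-0.20 ± 0.19, adjusted p = 0.866). Itgal, the alpha subunit of LFA-1, lay between 9.75 and 10.11 on all arrays (0.11 ± 0.18, adjusted p = 0.921). Itgam, the alpha subunit of Mac-1 on neutrophils and monocytes, lay at 9.91 and 10.40 in wild type and at 9.37 and 10.08 in Hes1-null marrow (-0.43 ± 0.30, adjusted p = 0.787). Its groups overlapped. Another 3 probe sets carry the names Itgam and Rpl35 together, gave differences of 0.14 to 0.16 and were not used.

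The neighbours of Itgam had positive differences that did not pass. Itgax, which encodes the CD11c subunit of dendritic cells and some macrophages, lay at 5.87 and 6.43 in wild type and at 6.47 and 7.04 in Hes1-null marrow. The groups came within 0.04 of each other without overlapping, and the difference was 0.60 ± 0.28 (95% interval -0.09 to 1.30, adjusted p = 0.661). Itgad, a macrophage alpha subunit, ranged from 6.27 to 6.45 (0.12 ± 0.14, adjusted p = 0.889), and its other probe set differed by 0.03. Itgam, Itgax and Itgad follow each other on chromosome 7 with no protein-coding gene between them in the RefSeq order. Beside Itgam, neutrophil markers summed to 14599 and 23620 in wild type and to 10031 and 13125 in Hes1-null marrow, and monocyte markers to 17068 and 15103 against 8665 and 10918. Beside Itgax, the 12 dendritic markers summed to 1745 and 1204 in wild type and to 4175 and 3502 in Hes1-null marrow, but without Flt3 the sums were 624 and 587 against 638 and 613. The part of these cells in either difference was not tested.

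Among the alpha subunits, the collagen receptor gene Itga1 had the largest difference. Itga1 pairs with Itgb1 in VLA-1, a receptor for collagen and laminin. Its level was 10.84 and 10.80 in the wild-type samples, against 9.57 and 9.53 in the Hes1-null samples. Arrays of a genotype lay within 0.04 of each other, and the genotypes were 2.41-fold apart. The difference of -1.27 ± 0.13 (95% interval -1.60 to -0.94) missed the threshold, with an adjusted p of 0.0600 and the 45th smallest p-value of all genes. A further quantile normalization raised the calls over all genes from 29 to 46. Itga1 passed there (adjusted p = 0.0486) and with array weights (0.0403). Its difference ran from -1.29 to -1.24 over 15 alternative fits. With 1 array left out, whether it passed depended on the array.

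All 4 alpha subunits of the collagen receptors lay lower on both Hes1-null arrays, as did 20.6% of all genes. Their differences ran from -1.27 to -0.17. Only 1 of the 4, Itga1, lay above the median level of all genes. Detection calls are absent, so a level above background is not shown for the others. The groups of Itga11 came within 0.02 of each other. Itga2, the alpha subunit of the platelet collagen receptor, lay at 5.51 and 5.65 in wild type and at 4.82 and 5.22 in Hes1-null marrow (-0.56 ± 0.18, adjusted p = 0.483). Itga10 and Itga11, subunits known from cartilage and fibroblasts, differed by -0.21 ± 0.14 and -0.17 ± 0.14, and neither passed.

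Itga1 and Itga2 are consecutive protein-coding genes on chromosome 13 in the RefSeq order, and both lay lower. Their promoters are shown because the genes adjoin, each as the 250 bases before the annotated start (RefSeq, GRCm38.p6), 5′ to 3′ on the gene's strand. The Itga1 stretch is chr13:115101965-115102214, minus strand, and that of Itga2 is chr13:114932101-114932350, minus strand. Capitals mark matches, on either strand, to the N box CACNAG or the related site CACGNG, both known as sequences that Hes repressors bind.
Itga1: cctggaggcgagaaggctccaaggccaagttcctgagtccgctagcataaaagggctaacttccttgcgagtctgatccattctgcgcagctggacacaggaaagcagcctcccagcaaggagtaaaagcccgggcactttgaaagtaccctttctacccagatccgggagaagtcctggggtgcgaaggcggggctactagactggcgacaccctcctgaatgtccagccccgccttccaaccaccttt
Itga2: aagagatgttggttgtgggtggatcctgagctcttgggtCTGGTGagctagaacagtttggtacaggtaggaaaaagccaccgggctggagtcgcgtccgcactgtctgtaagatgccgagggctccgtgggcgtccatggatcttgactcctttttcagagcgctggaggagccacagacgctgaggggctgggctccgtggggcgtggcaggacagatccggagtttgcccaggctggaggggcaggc
Itga1 held no match in this window and Itga2 held 1, an N box on the opposite strand that begins 211 bases before the start. The N box occurred in 36.7% of all promoters and in those of 7 of the 24 genes with an entry, which were Fermt2, Fermt3, Itga2, Itga2b, Itgb5, Itgb7 and Tln1. CACGNG occurred in 23.5% of all promoters and in those of Itgb8 and Tln1. RefSeq promoter entries were found for 24 of the 34 genes. Vcam1 had none.

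The platelet integrin genes lay lower together. Itgb3, the beta subunit of the fibrinogen and vitronectin receptors, lay at 9.24 and 8.81 in wild type and at 8.06 and 8.16 in Hes1-null marrow. The lowest wild-type array stood 0.65 above the highest Hes1-null array, and the difference of -0.91 ± 0.21 (95% interval -1.43 to -0.39) had an adjusted p of 0.279. Itga2b, its platelet partner, lay at 6.97 and 7.30 in wild type and at 6.56 and 6.33 in Hes1-null marrow (-0.69 ± 0.19, adjusted p = 0.395). Itgav, the other partner of Itgb3, lay at 8.87 and 9.08 in wild type and at 8.42 and 8.68 in Hes1-null marrow (-0.42 ± 0.19, adjusted p = 0.635). None of the 3 passed the test, and none of them overlapped between genotypes.

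Platelet markers were read beside these genes, and none passed the test (smallest adjusted p = 0.0862). Of 14 such markers 9 were measured, 6 of them lower on both Hes1-null arrays and 0 higher, against 20.6% and 17.4% of all genes. Their summed intensity overlapped between genotypes, at 861 and 1184 in wild type and 651 and 991 in Hes1-null marrow, and without the brightest, Thbs1, it was 693 and 808 against 483 and 524. Gp9, a subunit of the platelet receptor for von Willebrand factor, lay at 6.90 and 7.31 in wild type and at 6.60 and 6.54 in Hes1-null marrow. No marker was at 0, the lowest intensity being 15.98, and the part of platelets in the differences of Itgb3 and Itga2b was not tested. Itgb5, which pairs with Itgav but not with Itga2b, was split between its Hes1-null arrays, which lay 0.72 apart around the wild-type levels of 9.31 and 9.58 (-0.08 ± 0.28, adjusted p = 0.969).

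The remaining matrix receptor genes were those of the laminin receptors and Itga5. Itga6, the alpha subunit of laminin receptors on stem cells and platelets, lay at 8.76 and 9.09 in wild type and at 8.07 and 8.49 in Hes1-null marrow (-0.65 ± 0.23, 95% interval -1.21 to -0.08, adjusted p = 0.543). Its groups did not overlap. The other laminin receptor subunits, Itga3 and Itga7, differed by -0.16 ± 0.18 and -0.07 ± 0.16 with overlapping groups. Itga5, which with Itgb1 forms the fibronectin receptor VLA-5, lay at 9.11 and 9.39 in wild type and at 9.15 and 9.18 in Hes1-null marrow, with overlapping groups (-0.08 ± 0.17, adjusted p = 0.947).

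Some subunits were dim, as far as a single probe set per gene can show. Itga8, Itgae, Itgb6 and Itgb8, together with the activator Fermt2, lay below the 25th percentile of all genes by level. The deposited values carry no detection calls, so a level above background is not shown for them. Itgb6 ranged from 3.81 to 4.05 and Itgb8 from 4.68 to 4.89, with differences of -0.16 ± 0.13 and -0.15 ± 0.12. Itga8 differed by 0.21 ± 0.29, and 1 array, Hes1-null replicate 2 at 5.46, stood above the rest, which lay between 4.60 and 4.88. Itgb4, the hemidesmosome subunit that pairs with Itga6, ranged from 6.10 to 6.24 (0.09 ± 0.13). None of these had an adjusted p below 0.602.

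The activators used by blood cells had small differences. Fermt3, kindlin-3 of blood cells, lay between 10.33 and 10.47 on the 4 arrays (0.08 ± 0.13, 95% interval -0.24 to 0.41, adjusted p = 0.919). Tln1, talin-1, lay at 10.83 and 11.07 in wild type and at 10.59 and 11.01 in Hes1-null marrow (-0.15 ± 0.19, 95% interval -0.62 to 0.32, adjusted p = 0.903). These intervals leave room for changes of up to 0.41 and 0.62 in size. Fermt2, kindlin-2 of stromal and other adherent cells, lay at 5.30 and 5.07 in wild type and at 4.91 and 4.72 in Hes1-null marrow (-0.37 ± 0.15, adjusted p = 0.602).

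Arrays of 1 genotype differed among themselves to an extent that varied by gene. Within Hes1-null marrow the gap between the arrays was 0.5 or more for 7 of the 34 genes (20.6%), against 19.6% of all genes. The 7 were Icam2, Itga8, Itgb5, Itgam, Itgb1, Itgb7 and Itgax. Within wild type it was so for 1 gene, Itgax (2.94%), against 3.06% of all genes. Vcam1, Itga1, Itga4 and Itgb3 were not among them.

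**Figure D5:**
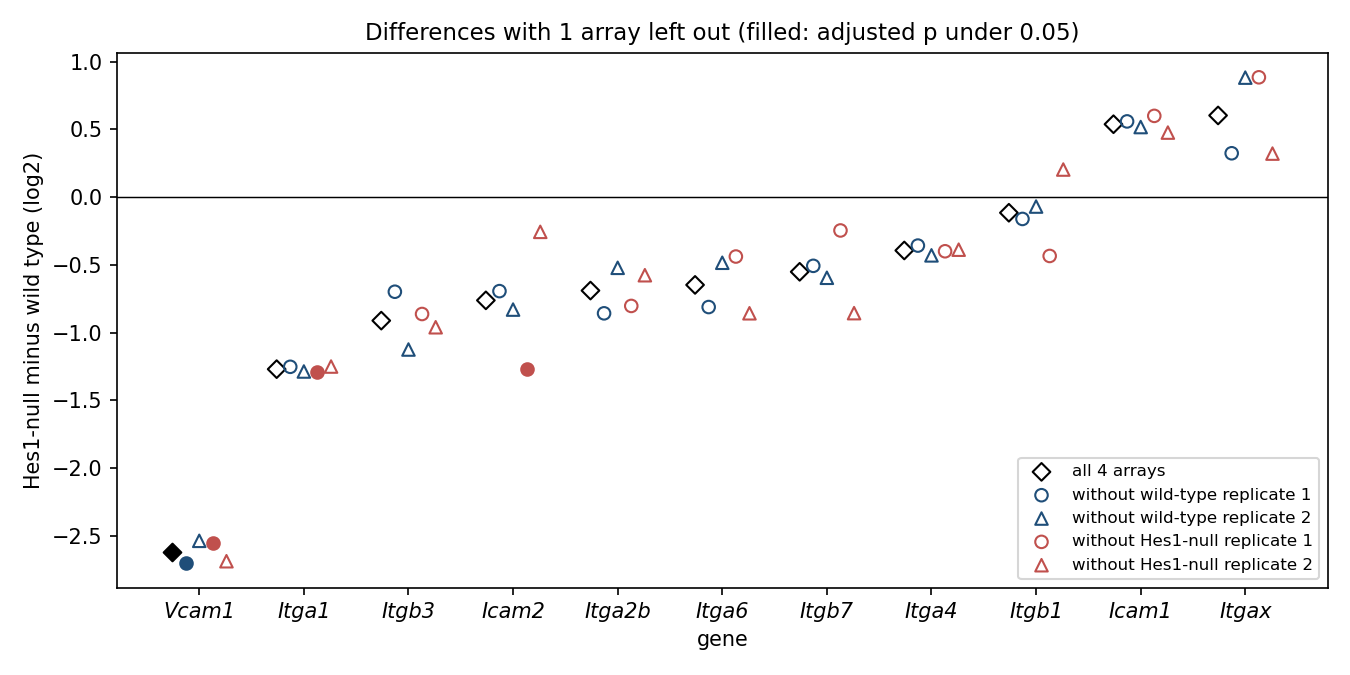
Difference of 11 of the 34 genes, Hes1-null minus wild type (log2), with all 4 arrays (diamond) and with each array left out in turn; filled symbols have an adjusted p under 0.05. Vcam1 and Itga1 stay within narrow bands, from -2.70 to -2.54 and from -1.29 to -1.25, whereas Itgb1 crosses 0 and Icam2 spans -1.27 to -0.26.

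Integrin pathway genes outside these 34 were read from 5 lists with 77 genes, of which 69 were measured. None of the 69 passed the test (limma). At an unadjusted p under 0.05, 11 lay lower and 3 higher, where all genes gave 4.78% and 3.51%. On both Hes1-null arrays 30 were lower and 12 higher, where all genes gave 20.6% and 17.4%. Their median difference was -0.13. Among the 21 measured kinases, adaptors and cytoskeletal linkers, Tns3, a tensin of focal adhesions, lay at 9.11 and 9.08 in wild type and at 7.94 and 8.10 in Hes1-null marrow (-1.07 ± 0.17, adjusted p = 0.142). Its relative Tns1 lay the other way, at 9.13 and 8.70 against 9.94 and 9.68 (0.90 ± 0.21, adjusted p = 0.306). Parvb, an adaptor of integrin-linked kinase, differed by -0.92 ± 0.18, and Ptk2b, the kinase Pyk2 of blood cells, by -0.48 ± 0.15. The number of calls over all genes varied widely with 1 array left out, so calls of single pathway genes there are not given.

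Among 15 genes of inside-out activation, 5 lay lower and 5 higher on both Hes1-null arrays, against 20.6% and 17.4% of all genes. Flna, filamin A, which competes with talin for beta tails, lay at 12.17 and 12.31 in wild type and at 11.27 and 11.72 in Hes1-null marrow (-0.74 ± 0.17, adjusted p = 0.286). Tln2, the second talin gene, differed by -0.64 ± 0.16. Rapgef1, an activator of the GTPase Rap1, and Sipa1, which switches Rap1 off, differed by 0.57 ± 0.21 and 0.30 ± 0.13. None of the 4 passed.

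Of 22 measured matrix and plasma ligands, 13 were lower and 2 higher on both Hes1-null arrays, against 20.6% and 17.4% of all genes. Vwf, von Willebrand factor of endothelium and platelets, lay at 6.84 on both wild-type arrays and at 6.30 and 6.31 in Hes1-null marrow (-0.54 ± 0.14, adjusted p = 0.353). Emilin1, a matrix ligand of Itga4 and Itgb1, differed by -0.59 ± 0.17, and Tgfb1, whose latent form binds Itgav integrins, by -0.37 ± 0.11. Mfge8, a bridge between dying cells and Itgav integrins, lay higher, by 0.72 ± 0.20 (adjusted p = 0.399). The 9 other surface ligands lay between -0.23 (Esam) and 0.15 (Jam3), with Jam2 at -0.17 and Icam5 at 0.11. Of the selectin genes and their ligand 2 were measured: Selplg, the ligand of P-selectin on leukocytes, differed by -0.31 ± 0.10 (adjusted p = 0.520) and Sele by 0.14 ± 0.20.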

How the data were processed

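RNA of 4 leukemic whole marrow samples was measured on MoGene-1_0-st-v1 arrays of Affymetrix. Per the submitters' processing notes, the authors deposited intensities that RMA in Expression Console had summarised; versions are not stated in the sources used here. The values proved to be linear, so log2 was taken and nothing was added. Of 35556 probe sets, 21789 carry 1 gene symbol; the brightest stood for each of 19938 genes, with no filter on level. Genotypes were compared with limma 3.58.1 in R 4.3.3 (lmFit, eBayes with trend; 2 residual and 3.41 prior degrees of freedom; two-sided), adjusting over all genes. The fit was tested on simulated data with the same variance in both genotypes, unlike the arrays here. It called 12.3% of 2-fold, 87% of 4-fold and 97.3% of 8-fold changes, and 4.63% of its calls were false. A gene that did not pass is thus not shown to be unchanged. Depth does not apply to arrays, and their number limits precision.

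The 34 genes, the pathway and the marker lists were chosen with earlier results of these data known. Each of the 34 is named. Values on every array are given for Vcam1, Itga4, Itgb1, for genes with an unadjusted p under 0.05 and for those differing by at least 0.5, and for some others. For each pathway list the 4 smallest p-values are given (all where fewer were measured), and for each marker list at most the 3 brightest genes. Promoters and gene order came from RefSeq (GRCm38.p6); the build behind the array's own annotation is not stated in the sources used here. Alternatives covered the filter on level, an offset of 16, normalization, moderation, array weights, probe set rules, the replicate number as a block and each array left out.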

Additional observations from a re-analysis of the deposited data

How the results depend on the processing

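The Vcam1 difference was negative under all 15 alternatives, from -2.70 to -2.38, and it was called under 13. The exceptions were the fits that left out replicate 2 of either genotype. With 1 array left out the difference was -2.70 to -2.54; there, the lone array of a genotype is assumed to vary like the others. Called genes among the 34 numbered 2 after a further quantile normalization and 2 with array weights, in both cases Vcam1 and Itga1, and 0 to 3 with 1 array left out. Called pathway genes numbered 0 to 3 with 1 array left out. Over all genes the 29 calls became 17 and 5 with filters at the 25th and 50th percentile of level, 46 after quantile normalization, 45 with array weights and 6 to 999 with 1 array left out. The median difference of the 34 genes was -0.30 among the 20 of them at or above the 50th percentile. With 16 added before log2, the shift of Vcam1 against Itga4 was -1.99. With 1 array left out it ranged from -2.35 to -2.11, and against Itgb1 from -2.89 to -2.12.

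Signs of uncalled genes turned only with an array left out. The ranges were -0.038 to 0.15 for Madcam1, -0.22 to 0.058 for Itga5, -0.44 to 0.28 for Itgb5, -0.37 to 0.048 for Itga3, -0.23 to 0.080 for Itga7, -0.36 to 0.060 for Tln1, -0.067 to 0.29 for Itgal, -0.15 to 0.23 for Itgae, -0.22 to 0.63 for Itga8, -0.43 to 0.20 for Itgb1 and -0.083 to 0.36 for Sele. Itga1 kept its sign in all. With the replicate number as a block there were 89 calls over all genes, and among the 34 genes Vcam1 alone was called (adjusted p = 0.0131). Same-numbered arrays deviated together only weakly (r = 0.05 across genes), and no label says what it marks, so the block was not used. The cause of these changes was not tested.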
